A study of Mus musculus with 8 samples.

Results

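The proteasome genes were 48 protein-coding genes of the GRCm38 annotation whose symbols run from the Psma to the Psmg series with a number, of 21887 protein-coding genes in all. The rule used the symbol and no peak value. At each of them, peaks of phospho-CREB1 were counted; CREB1 is a transcription factor that recognises cAMP response elements (CREs) in DNA and is activated by phosphorylation. A peak was assigned to a gene, as a gene-end peak, when its summit was no more than 1000 bp from one of the ends of the annotated span. An end is called shared with another gene when that gene also had an end within 1000 bp of the summit. In all, 42 of the 48 genes had such a peak in at least 1 library.

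Chromatin immunoprecipitation with sequencing (ChIP-seq) was performed on hindlimb muscle of C26 mice and of CTRL mice. The C26 mice were male Balb/c mice injected subcutaneously with C26 murine adenocarcinoma cells at 2 months of age, a model in which the tumor causes muscle wasting. The labels describe no injection for the CTRL mice. Each group had 2 phospho-CREB1 libraries, each with its own peak list called against an input library, and the labels do not say whether the libraries of a group came from separate animals, so the p-values below measure only the spread between these libraries. Tumor-bearing mice of the study were also given rolipram, a phosphodiesterase inhibitor, or vehicle, and the labels do not say which of these the C26 libraries received. The muscle is given as gastrocnemius in the sample labels and as quadriceps in the extraction protocol, and the protocol allows for a CREB or a phospho-CREB1 antibody.

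The proteasome degrades proteins that carry ubiquitin chains. Its 20S core is a barrel of alpha subunits (Psma genes), which form the gate, and beta subunits (Psmb genes), of which Psmb5, Psmb6 and Psmb7 carry the proteolytic sites. The 19S regulatory particle caps the core, with ATPases (Psmc genes) that unfold substrates and non-ATPase subunits (Psmd genes) that bind ubiquitin and remove it. Other activators (Psme genes), an inhibitor (Psmf1) and assembly chaperones (Psmg genes) act on the core. In skeletal muscle this pathway breaks down contractile proteins during wasting.

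The lists held 7482 and 4051 peaks in C26 replicates 1 and 2, and 10835 and 14975 peaks in CTRL replicates 1 and 2. Sequencing depth is unknown, so a gene without a peak had no region past the authors' calling threshold there, and may still be bound. Of 6 skeletal muscle markers, 3 and 1 had a gene-end peak in C26 replicates 1 and 2 and 4 and 5 in CTRL replicates 1 and 2. None of 4 leukocyte markers had one in any library, and of 3 endothelial and 3 fibroblast markers Kdr and Col1a1 had one, in CTRL replicate 2 only. Peaks do not measure expression, so these counts do not show which cells were present.

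Proteasome genes carried phospho-CREB1 peaks at more than 2 times the rate of protein-coding genes at large in every library. Gene-end peaks were found at 31 of the 48 genes in C26 replicate 1 (64.6%, 95% Wilson interval 50.4 to 76.6), where 26.1% of all protein-coding genes had one. The number was 14 in C26 replicate 2 (29.2%, 18.2 to 43.2, against 14% of all genes). It was 36 in CTRL replicate 1 (75%, 61.2 to 85.1, against 33.9% of all genes) and 40 in CTRL replicate 2 (83.3%, 70.4 to 91.3, against 40.1% of all genes). The intervals cover counting error only. All genes include many that are silent in muscle, and the share among active genes was not tested.

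**Figure D1:**
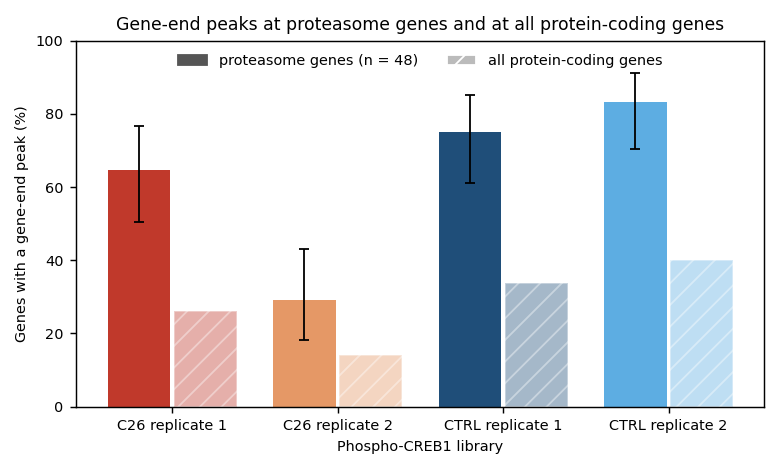
Percent of the 48 proteasome genes (solid bars, with 95% Wilson intervals) and of all 21887 protein-coding genes (hatched bars) with a gene-end peak in each phospho-CREB1 library. The proteasome bars stand at 64.6% and 29.2% in the C26 libraries and at 75% and 83.3% in the CTRL libraries, each above the hatched bar beside it.

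Both CTRL libraries had a gene-end peak at 35 of the 48 genes (72.9%, 59.0 to 83.4), compared with 32.2% of all protein-coding genes. Both C26 libraries had one at 12 (25%, 14.9 to 38.8), compared with 13% of all genes, and the same 12 genes had one in all 4 libraries, where 12.7% of all genes did. A peak in neither group was recorded for 6 genes (12.5%, against 57.7% of all genes). Where a peak was present, its strength was ordinary for a gene-end peak. By percentile of −log10 q within the list, with 100 for the strongest peak, the median over the proteasome genes with a peak was 58.4 and 64.4 in C26 replicates 1 and 2 and 65.9 and 75.4 in CTRL replicates 1 and 2. The same median over all genes with a gene-end peak was 60.5, 60.9, 63.6 and 69.2 in these libraries.

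**Figure D2:**
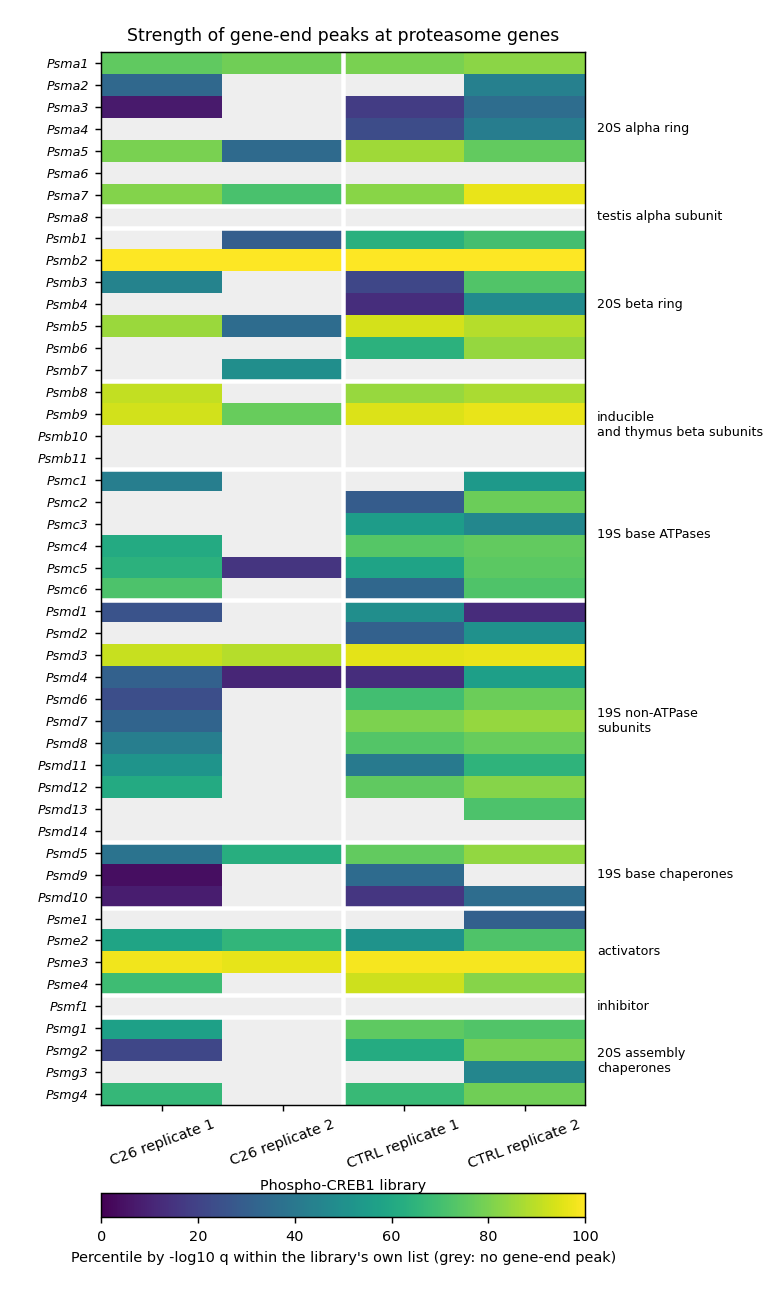
Strength of the gene-end peak at each of the 48 proteasome genes (rows, grouped by role) in each phospho-CREB1 library (columns), as the percentile by −log10 q within the library's own list; grey marks no gene-end peak. Psmb2, Psme3, Psmd3 and Psmb9 are high in every column, and most rows are grey in C26 replicate 2, which had a peak at 14 of the 48 genes.

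Genes with a peak in all 4 libraries were ordered by their lowest percentile over the libraries. The first 4 in that order had different roles. Psmb2, a structural beta subunit of the core, carried the peak that ranked 1 by −log10 q in both CTRL lists, 2 in C26 replicate 1 and 3 in C26 replicate 2. Its summits lay 19, 20, 19 and 19 bp from the gene end in C26 replicates 1 and 2 and CTRL replicates 1 and 2, a spread of 1 bp over 4 libraries called separately. The peak spanned chr4:126677181-126678013 in C26 replicate 1 (833 bp wide, 129-fold over input, −log10 q 910.0), and the enrichment was 64.4-fold in C26 replicate 2 and 143.8- and 217-fold in CTRL replicates 1 and 2. Fold enrichments were scaled within each library and its input by the authors, so they rank peaks within a list and are not compared between lists.

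Psme3 encodes the gamma subunit of the 11S activator, which works in the nucleus. Its peak at chr11:101315751-101316491 in C26 replicate 1 (741 bp) had 31.7-fold enrichment there and 24.9-fold in C26 replicate 2, and 48.9- and 89.4-fold in CTRL replicates 1 and 2. It stood at percentiles 97.7 and 96.2 in the C26 lists and 98.5 and 98.8 in the CTRL lists (−log10 q 190.8 and 51.8 in C26, 323.1 and 301.7 in CTRL). Psmd3, a scaffold subunit of the 19S lid, had a peak at chr11:98682056-98682706 in C26 replicate 1 (651 bp), with 12.4- and 15.0-fold enrichment in C26 and 39.0- and 41.2-fold in CTRL replicates 1 and 2. Its percentiles were 91.8 and 89.0 in C26 and 96.0 and 96.6 in CTRL libraries (−log10 q 55.4 and 23.9 in C26, 134.8 and 110.9 in CTRL). Psmb9, the interferon-inducible subunit that takes the place of Psmb6 in the immunoproteasome, had a peak at chr17:34187234-34187766 in C26 replicate 1 (533 bp), at the end it shares with Tap1, an antigen peptide transporter gene. The enrichment was 16.3- and 10.2-fold in C26 and 24.9- and 45.3-fold in CTRL replicates 1 and 2. Psmb9 stood at percentiles 93.0 and 76.8 in C26 and 94.9 and 96.9 in CTRL lists (−log10 q 66.5 and 13.1 in C26, 100.3 and 118.1 in CTRL). All 3 were therefore among the stronger peaks of every list, and their summits lay within 20, 16 and 26 bp over the 4 libraries.

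The next in that order were 2 alpha subunits. In single libraries the order differed. Psmb5, for example, stood above Psma1 in C26 replicate 1 and both CTRL libraries, and below it in C26 replicate 2. Psma1 had a peak at chr7:114275917-114276495 in C26 replicate 1 (579 bp), with 6.71- and 10.7-fold enrichment in C26 and 9.36- and 10.8-fold in CTRL replicates 1 and 2. Its −log10 q was 18.9 and 14.0 in C26 and 28.5 and 28.1 in CTRL libraries, at percentiles 75.5 and 78.3 in C26 and 80.1 and 82.8 in CTRL lists. Psma7 had 9.65- and 9.29-fold in C26 and 14.0- and 40.1-fold in CTRL replicates 1 and 2, at chr2:180042224-180043323 in C26 replicate 1 (1100 bp). Its −log10 q was 24.9 and 11.1 in C26 and 31.5 and 113.1 in CTRL libraries, at percentiles 81.4 and 71.2 in C26 and 82.2 and 96.7 in CTRL lists. An end of Ss18l1 lay within 1000 bp of the Psma7 summit in each library. The strongest summit lay 712 and 2 bp from the Psma7 end in C26 and 107 and 697 bp in CTRL replicates 1 and 2. The summit thus sat nearer Psma7 in C26 replicate 2 and CTRL replicate 1 and farther out in the other libraries, a division that did not follow the groups.

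RefSeq promoter windows (GRCm38.p6, 250 bases before to 50 after the start, 5′ to 3′ on the gene's strand) are shown because the peaks overlapped them. They belong to the first genes in order of the lowest percentile that had an entry. Capitals mark every TGACG or its reverse complement CGTCA, the core of the CRE.
Psme3 (chr11:101315963-101316262, plus strand): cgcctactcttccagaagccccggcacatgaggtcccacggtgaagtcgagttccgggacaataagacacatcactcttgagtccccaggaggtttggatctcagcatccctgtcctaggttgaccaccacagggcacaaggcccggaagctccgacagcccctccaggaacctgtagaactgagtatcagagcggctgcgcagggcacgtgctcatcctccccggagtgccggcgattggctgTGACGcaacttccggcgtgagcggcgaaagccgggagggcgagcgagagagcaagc
Psmb9 (chr17:34187281-34187580, minus strand): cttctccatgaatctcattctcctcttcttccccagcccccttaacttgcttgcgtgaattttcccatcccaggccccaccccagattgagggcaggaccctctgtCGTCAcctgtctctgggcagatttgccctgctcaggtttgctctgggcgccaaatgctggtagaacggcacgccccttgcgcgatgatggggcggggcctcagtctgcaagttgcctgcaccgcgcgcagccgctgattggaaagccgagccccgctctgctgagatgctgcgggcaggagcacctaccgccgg
Psma1 (chr7:114276067-114276366, minus strand): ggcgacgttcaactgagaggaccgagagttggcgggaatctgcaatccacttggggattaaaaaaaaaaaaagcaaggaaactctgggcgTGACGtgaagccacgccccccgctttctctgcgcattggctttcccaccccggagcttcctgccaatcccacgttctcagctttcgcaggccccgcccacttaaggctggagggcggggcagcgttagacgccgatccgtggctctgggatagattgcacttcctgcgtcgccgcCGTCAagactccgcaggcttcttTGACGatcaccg
Psma7 (chr2:180042415-180042714, minus strand): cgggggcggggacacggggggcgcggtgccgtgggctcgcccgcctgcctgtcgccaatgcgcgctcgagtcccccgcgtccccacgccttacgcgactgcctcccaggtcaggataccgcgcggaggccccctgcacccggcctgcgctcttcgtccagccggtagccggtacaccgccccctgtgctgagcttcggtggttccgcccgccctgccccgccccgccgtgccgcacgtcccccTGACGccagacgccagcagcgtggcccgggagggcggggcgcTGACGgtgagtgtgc
The core lay at position -6 in Psme3 and -144 in Psmb9 (its first base, with the start base at 0), at -160, 15 and 38 in Psma1, and at -7 and 35 in Psma7. The Psmb9 summits fell 18 and 28 bp from the middle of that core in C26 replicates 1 and 2 and 13 and 2 bp from it in CTRL replicates 1 and 2. The Psme3 summits fell 224 and 237 bp from its core in C26 and 244 and 243 bp in CTRL libraries, just inside the upstream edge of the window. For Psma7 the nearest core lay 707 and 3 bp from the summit in C26 and 70 and 692 bp in CTRL replicates 1 and 2. Its summits in C26 replicate 1 and CTRL replicate 2 lay outside the window.

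Next by the lowest percentile over the 4 libraries came Psme2, Psmd5, Psmb5 and Psma5. Their windows are given as the next in that order, and each held the core, at different distances from the summit.
Psme2 (chr14:55591052-55591351, minus strand): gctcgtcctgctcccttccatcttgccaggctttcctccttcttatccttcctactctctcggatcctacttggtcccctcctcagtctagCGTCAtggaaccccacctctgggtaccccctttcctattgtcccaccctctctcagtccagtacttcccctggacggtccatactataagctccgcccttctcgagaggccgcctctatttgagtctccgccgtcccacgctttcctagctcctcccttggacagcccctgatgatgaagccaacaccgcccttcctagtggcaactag
Psmd5 (chr2:34870913-34871212, minus strand): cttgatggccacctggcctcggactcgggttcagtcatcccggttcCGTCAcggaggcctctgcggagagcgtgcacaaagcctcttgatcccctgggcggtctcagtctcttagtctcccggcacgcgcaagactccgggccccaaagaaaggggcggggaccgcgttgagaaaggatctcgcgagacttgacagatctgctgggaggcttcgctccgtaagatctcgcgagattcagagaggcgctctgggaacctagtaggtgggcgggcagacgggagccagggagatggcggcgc
Psmb5 (chr14:54617946-54618245, minus strand): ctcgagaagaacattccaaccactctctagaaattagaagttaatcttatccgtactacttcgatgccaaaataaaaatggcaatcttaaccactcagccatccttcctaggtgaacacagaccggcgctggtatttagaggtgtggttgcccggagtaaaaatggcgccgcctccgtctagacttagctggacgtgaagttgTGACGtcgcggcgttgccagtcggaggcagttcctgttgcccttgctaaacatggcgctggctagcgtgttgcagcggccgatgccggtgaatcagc
Psma5 (chr3:108256676-108256975, plus strand): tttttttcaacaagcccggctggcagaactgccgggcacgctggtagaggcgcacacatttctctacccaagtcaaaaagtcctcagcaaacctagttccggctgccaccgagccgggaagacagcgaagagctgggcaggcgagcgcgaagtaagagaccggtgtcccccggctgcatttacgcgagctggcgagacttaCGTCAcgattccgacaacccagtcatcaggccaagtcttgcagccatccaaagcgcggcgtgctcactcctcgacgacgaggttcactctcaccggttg
Psmb5 carries the chymotrypsin-like site of the core. Its peak (chr14:54617831-54618304 in C26 replicate 1, 474 bp) had 11.8- and 6.12-fold enrichment in C26 and 24.7- and 20.2-fold in CTRL replicates 1 and 2. The middle of its core, whose first base is at -47, lay 19 and 99 bp from the summit in C26 and 25 and 25 bp in CTRL replicates 1 and 2. Within its own lists it stood at percentiles 84.8 and 35.3 in C26 and 93.6 and 88.8 in CTRL libraries (−log10 q 29.8 and 5.07 in C26, 81.0 and 39.9 in CTRL).

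Psma5 encodes an alpha subunit. Its peak (chr3:108256688-108257163 in C26 replicate 1, 476 bp) had 7.15- and 6.12-fold enrichment in C26 and 13.1- and 10.5-fold in CTRL replicates 1 and 2, with percentiles of 79.8 and 34.7 in C26 and 85.8 and 76.1 in CTRL lists (−log10 q 22.9 and 5.06 in C26, 38.7 and 20.5 in CTRL). The middle of its core, whose first base is at -49, lay 51 and 20 bp from the summit in C26 and 78 and 75 bp in CTRL replicates 1 and 2. Psmd5, a chaperone of 19S base assembly, had 4.11- and 8.23-fold in C26 and 9.20- and 13.8-fold in CTRL replicates 1 and 2 (chr2:34870913-34871398 in C26 replicate 1, 486 bp). Its percentiles were 38.2 and 62.8 in C26 and 76.0 and 83.8 in CTRL lists (−log10 q 6.88 and 9.03 in C26, 23.6 and 29.8 in CTRL), and its core, at -204, lay 11 and 96 bp from the summit in C26 and 177 and 104 bp in CTRL replicates 1 and 2. Psme2, the beta subunit of the 11S activator and an interferon-inducible gene, had 5.89- and 8.53-fold in C26 and 6.15- and 10.8-fold in CTRL replicates 1 and 2 (chr14:55591065-55591973 in C26 replicate 1, 909 bp). An end of Rnf31 lay at the same peak, and the summit was 650 and 600 bp from Psme2 in C26 and 614 and 4 bp in CTRL replicates 1 and 2. Percentiles for Psme2 were 58.4 and 66.0 in C26 and 51.3 and 72.3 in CTRL lists (−log10 q 11.1 and 9.67 in C26, 10.3 and 17.7 in CTRL). Its core lay 493 and 443 bp from the summit in C26 and 457 and 161 bp in CTRL replicates 1 and 2, the farthest of these 4 genes in each library.

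By role, the counts below stand against a background of 26.1% and 14% of all genes in C26 replicates 1 and 2 and 33.9% and 40.1% in CTRL replicates 1 and 2. The roles hold 11 genes or fewer, so a small count in C26 replicate 2 is not a result about that role. Among the alpha ring genes, 5 and 3 of 7 had a gene-end peak in C26 replicates 1 and 2 and 5 and 6 in CTRL replicates 1 and 2. Besides Psma1, Psma5 and Psma7, Psma3 had 3.70-fold enrichment in C26 replicate 1 and 3.98- and 5.99-fold in CTRL replicates 1 and 2, with no gene-end peak in C26 replicate 2. Psma2 had 4.70-fold in C26 replicate 1 and 6.22-fold in CTRL replicate 2, at an end shared with the mitochondrial ribosomal gene Mrpl32. Psma4 had a peak in the CTRL libraries only (4.20- and 6.37-fold), Psma6 had no gene-end peak, and neither did Psma8, the form of the testis. By gene ends, the alpha ring thus ranged from peaks in every library to none; Psma6 had peaks at an internal start, given further on.

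In the beta ring, 3 and 4 of 7 genes had a peak in C26 replicates 1 and 2 and 6 and 6 in CTRL replicates 1 and 2. Psmb2 and Psmb5 had one in all 4 libraries. Psmb3 had 4.89-fold enrichment in C26 replicate 1 and 4.27- and 11.5-fold in CTRL replicates 1 and 2, at an end shared with the Polycomb gene Pcgf2. Psmb1 was the only proteasome gene with a peak in both CTRL libraries (7.68- and 9.82-fold) and C26 replicate 2 (5.86-fold) and none in C26 replicate 1 (1 of 48, against 0.676% of all genes, and 1 of the 35 with a peak in CTRL replicates 1 and 2, against 2.1%). Psmb7, which carries the trypsin-like site, had a peak in C26 replicate 2 alone (6.97-fold, chr2:38643827-38644208, 382 bp), and Psmb4 and Psmb6 had peaks in CTRL libraries only. The genes of the 3 proteolytic sites thus differed in pattern: Psmb5 in all 4 libraries, Psmb6 in both CTRL libraries and Psmb7 in 1 C26 library.

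The inducible subunits of the immunoproteasome were divided as well. Psmb8, which replaces Psmb5 there, had 19.1-fold enrichment in C26 replicate 1 and 11.9- and 17.1-fold in CTRL replicates 1 and 2, with no peak in C26 replicate 2. Its summits lay 552 bp from the gene in C26 replicate 1 and 505 and 512 bp in CTRL replicates 1 and 2, by the other end of Tap1, so that both ends of Tap1 carried a peak. Psmb10, which replaces Psmb7, and Psmb11, the form of the thymus, had no gene-end peak in any library. For Psmb10 the nearest summits were 1285 and 1270 bp from a gene end in CTRL replicates 1 and 2, just outside the window, while the peak of Psma3 in C26 replicate 1 was the farthest inside it, at 844 bp. Other peaks just outside were 1043 bp from Psmb3 in C26 replicate 2, 1398 bp from Psmc2 and 1641 bp from Psmb1, both in C26 replicate 1.

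All 6 ATPases of the 19S base had a peak in CTRL replicate 2 and 5 had one in CTRL replicate 1, against 4 in C26 replicate 1 and 1 in C26 replicate 2. That 1 was Psmc5, with 6.58- and 4.98-fold enrichment in C26 and 6.93- and 11.5-fold in CTRL replicates 1 and 2, at an end shared with the rRNA processing gene Ftsj3. Psmc4 had 6.34-fold in C26 replicate 1 and 8.72- and 11.8-fold in CTRL replicates 1 and 2, and Psmc6 had 7.52-fold in C26 replicate 1 and 4.48- and 10.8-fold in CTRL replicates 1 and 2. Psmc1 had a peak in C26 replicate 1 (5.04-fold) and CTRL replicate 2 (7.80-fold). Psmc2 and Psmc3 had gene-end peaks in CTRL libraries only.

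Among the 11 non-ATPase subunits, 8 and 2 had a peak in C26 replicates 1 and 2 and 9 and 10 in CTRL replicates 1 and 2. Psmd4, a ubiquitin receptor, was the weakest of the genes with a peak in all 4 libraries, with 4.25- and 4.79-fold enrichment in C26 and 3.76- and 7.12-fold in CTRL replicates 1 and 2. Psmd1, Psmd6, Psmd7, Psmd8, Psmd11 and Psmd12 shared a pattern of peaks in C26 replicate 1 and both CTRL libraries. For Psmd7 the enrichment was 4.45-fold in C26 replicate 1 and 13.3- and 15.2-fold in CTRL replicates 1 and 2, and its percentile was 32.3 in C26 replicate 1 and 80.3 and 84.2 in the CTRL lists. Psmd6 had 3.55-fold in C26 replicate 1 and 7.33- and 12.2-fold in CTRL replicates 1 and 2, with percentiles of 23.9 in C26 and 69.9 and 77.4 in CTRL lists. Psmd12 (5.79-fold in C26 replicate 1, 10.8- and 14.9-fold in CTRL), Psmd8 (4.88-fold in C26, 9.56- and 11.5-fold in CTRL), Psmd11 (6.20-fold in C26, 6.51- and 8.88-fold in CTRL) and Psmd1 (4.46-fold in C26, 6.27- and 4.40-fold in CTRL) completed that set. Psmd13 had a peak in CTRL replicate 2 alone (10.2-fold), where it shares an end with Sirt3, a mitochondrial deacetylase gene. Psmd14, the deubiquitinase of the lid, had no peak nearby, and the nearest summit in any of the 4 libraries was 118232 bp from its RefSeq promoter start.

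Of the base chaperones, Psmd5 is given above. Psmd10 (gankyrin) had 3.91-fold enrichment in C26 replicate 1 and 4.68- and 6.12-fold in CTRL replicates 1 and 2. Psmd9 had a peak in C26 replicate 1 (3.43-fold) and CTRL replicate 1 (5.85-fold). Both were weak peaks in C26 replicate 1, at percentiles 8.13 for Psmd10 and 3.61 for Psmd9. Psmd10 stood at 15.8 and 35.9 in CTRL replicates 1 and 2, and Psmd9 at 34.8 in CTRL replicate 1.

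Among the activators, Psme4, which encodes a nuclear activator of the core, had 6.20-fold enrichment in C26 replicate 1 and 22.0- and 14.6-fold in CTRL replicates 1 and 2. Psme1, the alpha partner of Psme2, had a peak in CTRL replicate 2 alone (5.57-fold). The chaperones of core assembly gave 3 and 0 of 4 genes with a peak in C26 replicates 1 and 2, and 3 and 4 in CTRL replicates 1 and 2. Psmg1 had 5.72-fold in C26 replicate 1 and 9.49- and 10.0-fold in CTRL replicates 1 and 2. Psmg2, which shares its end with the centrosomal gene Cep76, had 4.33-fold in C26 replicate 1 and 7.73- and 13.6-fold in CTRL replicates 1 and 2. Psmg4 had 6.46-fold in C26 replicate 1 and 8.37- and 13.1-fold in CTRL replicates 1 and 2, and Psmg3 had a peak in CTRL replicate 2 alone (7.08-fold).

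Between the groups, fewer proteasome genes carried a peak in C26 than in CTRL muscle. The share was 46.9% ± 25.0 in C26 and 79.2% ± 5.89 in CTRL libraries (SD, n = 2 per group). C26 minus CTRL was -32.3 percentage points, with p = 0.333 in a two-sided exact permutation test, the smallest p that 2 libraries against 2 allow. The groups did not overlap, and the C26 libraries differed from each other more than C26 replicate 1 differed from CTRL. Without C26 replicate 2 the difference was -14.58 points, and without C26 replicate 1 it was -50 points. All protein-coding genes moved in the same direction, with 20.0% ± 8.57 in C26 and 37.0% ± 4.35 in CTRL libraries (SD, n = 2 per group). Divided by the share of all genes, the share of proteasome genes was 2.47 and 2.09 in C26 and 2.21 and 2.08 in CTRL replicates 1 and 2, which overlap (difference 0.136, exact permutation p = 0.667, n = 2 per group). With full lists, this ratio cannot decide whether proteasome genes lost more peaks than all genes. It has a ceiling, reached when every proteasome gene has a peak. That ceiling is lower where more of all genes have a peak, as in the CTRL libraries. In whole muscle and with depth unknown, a difference in sequencing depth, fewer cells with a bound site and less binding per cell cannot be told apart.

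The lists differ in length, so each was also cut to its 4051 strongest peaks, the length of the shortest (with ties at the end kept). Of the 48 genes, 18 and 14 then had a gene-end peak in C26 replicates 1 and 2 and 20 and 22 in CTRL replicates 1 and 2. The background in the cut lists was 16.9% and 14% of all genes in C26 and 17.3% and 18% in CTRL libraries. The difference in share was -10.42 percentage points (exact permutation p = 0.333, n = 2 per group). In these equal lists Psmb6, Psmd6, Psmd7 and Psmd8 had a peak in both CTRL and neither C26 library (4 of 48, against 1.06% of all genes), and Psme2 alone showed the opposite pattern (1 of 48, against 0.379%). Except for Psmb6, these patterns depend on the cut. With full lists Psmd6, Psmd7 and Psmd8 had a peak in C26 replicate 1, and Psme2 had one in all 4 libraries. The Psme2 peak in CTRL replicate 2 ranked 4128, just past the cut at 4051. All 4 cut lists shared a peak at 8 of the 48 genes (against 9.69% of all genes). Divided by the share of all genes, the share of proteasome genes was lower in C26 than in CTRL libraries here, by -0.3219 (exact permutation p = 0.333, n = 2 per group), opposite in sign to the 0.136 of the full lists.

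With full lists, a peak in both CTRL and neither C26 library was found at 6 of the 48 genes (12.5%, against 7.4% of all genes). They were 17.1% (8.1 to 32.7) of the 35 proteasome genes that the CTRL libraries had in common, compared with 23% over the whole gene set counted in the same way. Psmb6, which carries the caspase-like site, was the strongest of these: its enrichment was 9.62-fold in CTRL replicate 1 and 15.2-fold in CTRL replicate 2 (percentiles 64.4 and 84.2, −log10 q 15.3 and 30.1, chr11:70525081-70525655 in CTRL replicate 2, 575 bp). Psmc2 had 5.50- and 13.1-fold (chr5:21784827-21785421, 595 bp, −log10 q 22.0 in CTRL replicate 2), at an end shared with the chaperone gene Dnajc2. Psmc3 had 6.87- and 6.55-fold (chr2:91053908-91054312, 405 bp, −log10 q 7.97) and Psmd2, a scaffold and ubiquitin-binding subunit of the base, 5.08- and 7.17-fold (chr16:20651528-20651797, 270 bp, −log10 q 8.93). Psmb4 had 3.76- and 6.50-fold (chr3:94886711-94887238, 528 bp, −log10 q 8.25), and Psma4 4.20- and 6.37-fold (chr9:54950537-54951064, 528 bp, −log10 q 7.01). An end of AY074887 lay within 1000 bp of the Psma4 summit in both CTRL libraries, and an end of Hykk in CTRL replicate 1 only. Apart from Psmb6, and from Psmc2 in CTRL replicate 2, these peaks stood between percentiles 13.0 and 55.3 of their CTRL lists.

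The opposite pattern, both C26 libraries without either CTRL library, was found at no proteasome gene (0 of 48, Wilson upper limit 7.41%, against 0.0274% of all genes). The commonest pattern was a peak in both CTRL libraries and C26 replicate 1 with none in C26 replicate 2, at 16 of the 48 genes (against 11.3% of all genes), or 16 of the 35 (45.7%, 30.5 to 61.8, against 35.3% over all protein-coding genes with that CTRL pattern). Peaks in all 4 libraries were found at 12 of the 35 (34.3%, 20.8 to 50.8, against 39.6%). The median percentile of these 12 was 80.6 and 68.6 in C26 and 84.0 and 86.3 in CTRL replicates 1 and 2 (C26 minus CTRL -10.6, exact permutation p = 0.333, n = 2 per group). Percentiles come from lists of different length, and no change in binding is read from them.

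Summits clustered just upstream of transcription starts. RefSeq promoter starts were given for 40 of the 48 genes, and 98 of the 101 gene-end peaks of these genes lay within 1000 bp of a start. The exceptions were the 3 of Psma3, 5868 to 6184 bp from its start. Counting the summit nearest to a start in each library, 109 lay within 1000 bp, 78 upstream and 31 downstream, with a median distance of 71 bp, and 82 lay within 150 bp. Over the libraries, 38 genes had a gene-end peak in more than 1, and their summits spread over a median of 76 bp. These distances and spreads were not taken over all genes, so whether proteasome genes differ from other genes in them was not tested. Another protein-coding gene had an end at the peak of 12 of the 42 genes with one (28.6%), close to the 29.2% of all genes with a gene-end peak, and for these the peak cannot be assigned to either gene.

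**Figure D3:**
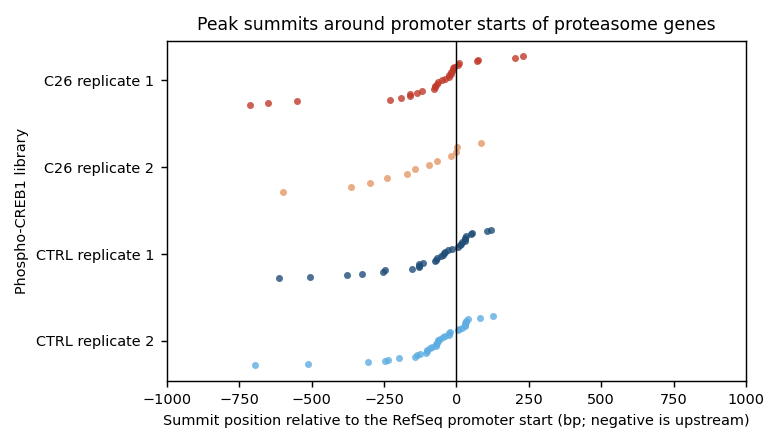
Position of the nearest peak summit relative to the RefSeq promoter start (bp, negative is upstream) for proteasome genes with a summit within 1000 bp, in each phospho-CREB1 library; each point is 1 gene, and points of a library are spread vertically in order of position. Summits gather at and just upstream of the start in all 4 libraries, and 78 of the 109 points lie upstream. A gene can give a point in each library, so the points are not independent.

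Promoter starts also brought in genes that the gene ends had missed. Psmf1, the inhibitor, had no gene-end peak because its annotated span runs past the start, but summits lay 11 bp from its RefSeq start in C26 replicate 1 (5.56-fold) and 16 and 21 bp from it in CTRL replicates 1 and 2 (7.74- and 14.7-fold). Psma6 had a peak at its other annotated start, 1 bp away in C26 replicate 2 (5.95-fold) and 121 and 31 bp away in CTRL replicates 1 and 2 (7.60- and 8.32-fold). Psma3 had one at its start in all 4 libraries, with 9.24- and 5.31-fold in C26 and 7.75- and 14.2-fold in CTRL replicates 1 and 2. Psmc2 had one in C26 replicate 1 (5.54-fold), 74 bp from its other start, so its absence from that list held for gene ends only. In C26 replicate 2 the nearest summit was 83450 bp from a Psmc2 start. By promoter starts, 29 and 12 of the 40 genes had a peak in C26 replicates 1 and 2 and 32 and 36 in CTRL replicates 1 and 2, with all genes at 28% and 15% in C26 and 36.5% and 43% in CTRL libraries. Psmb10, Psmb11 and Psmd14 had no promoter-start peak in any library (3 of 40, against 55% of all genes). By this count 4 of the 40 had a peak in CTRL libraries only (against 7.98%) and 0 in C26 libraries only (against 0.0114%).

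The full CRE, TGACGTCA, was in none of the 43 promoter windows of these 40 genes, searched on both strands, compared with 2.23% of 21263 windows of all protein-coding genes. With 1 mismatch allowed it was in 9 (20.9%, against 12.9%). Its core, TGACG on either strand, was in 20 windows of 19 genes (46.5%, against 23.6%). The core of the antioxidant response element, TGACNNNGC on either strand, which factors of the Nfe2l family bind and which can overlap TGACG, was in 6 (14%, against 13%). A match describes the letters of this window, and the windows reach only 250 bases upstream.

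Of the 19 genes with the CRE core, 18 had a promoter-start peak in both CTRL libraries (94.7%), compared with 13 of the 21 without it (61.9%). The same shares over all protein-coding genes were 61.7% (2833 of 4590) with and 25.2% (3252 of 12902) without the core. The core contains a CpG, and windows with it were richer in CpG, with a median of 21 CpG sites against 9 in windows without it over all genes, and a median of 19 in the proteasome windows against 13 in all windows. Within the proteasome windows the medians were 20.5 CpG sites with the core and 18 without it. Among windows of all genes with at least 19 CpG sites, 36.2% held the core, and a promoter-start peak was shared by the CTRL libraries at 78.5% of genes with it and 53.9% of genes without it. The part of base composition in the proteasome values was not tested.

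**Figure D4:**
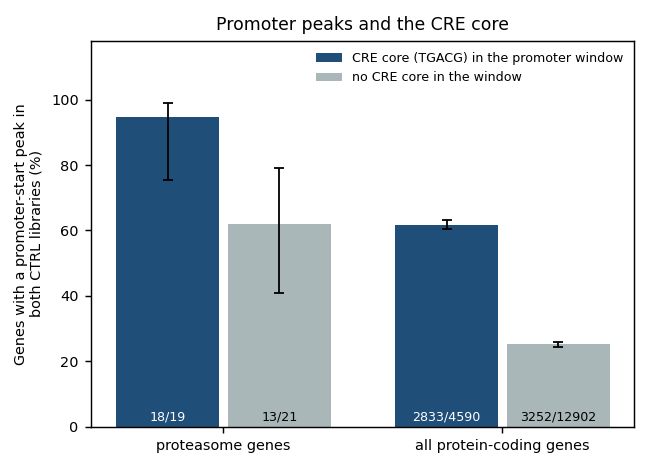
Percent of genes with a phospho-CREB1 peak within 1000 bp of a RefSeq promoter start in both CTRL libraries, for genes with and without the CRE core TGACG in the promoter window; error bars are 95% Wilson intervals and the counts stand in the bars. The share is 94.7% with and 61.9% without the core among proteasome genes, and 61.7% with and 25.2% without it among all genes.

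Distances between core and summit were taken where both lay in the window, which bounds them. The median distance from the strongest promoter-start summit to the nearest core was 18 bp over 13 proteasome genes in C26 replicate 1 and 46.5 bp over 6 in C26 replicate 2. It was 28.5 bp over 14 genes in CTRL replicate 1 and 38 bp over 17 in CTRL replicate 2. All genes with a core and a summit in the window had medians of 23 and 22 bp in C26 and 24 and 25 bp in CTRL replicates 1 and 2, and the test of a difference was not run. Psmc4 was among the closest, with the summit 9 bp from the middle of its core in C26 replicate 1 and 1 and 25 bp from it in CTRL replicates 1 and 2.

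Genes that work with the proteasome also carried peaks. Of 30 such genes, 29 were found in the gene table. A gene-end peak was present at 24 and 14 of them in C26 replicates 1 and 2 and at 25 and 27 in CTRL replicates 1 and 2. Both CTRL libraries had one at 25 (86.2%, against 32.2% of all genes) and all 4 libraries at 14 (48.3%, against 12.7%). The list was chosen with earlier results of these data known. All genes include many that are silent in muscle, and the share among active genes was not tested. Nfe2l1, the transcription factor that raises proteasome gene expression when proteasome activity falls, had 7.79- and 8.97-fold enrichment in C26 and 8.63- and 18.3-fold in CTRL replicates 1 and 2. Ddi2, the protease that activates it, had 4.05-fold in C26 replicate 1 and 7.47- and 11.0-fold in CTRL replicates 1 and 2. Nfe2l2, a relative that acts in oxidative stress, was the 1 gene of the list with a peak in both CTRL (6.05- and 9.64-fold) and neither C26 library (1 of 29, 3.45%, against 7.4% of all genes).

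Zfand2a, a stress-induced gene whose product binds the proteasome, had the strongest peaks of the list, at 43.2- and 47.9-fold in C26 and 93.0- and 89.4-fold in CTRL replicates 1 and 2. The polyubiquitin gene Ubb had 12.6- and 10.9-fold in C26 and 26.9- and 41.2-fold in CTRL replicates 1 and 2, and the segregase gene Vcp 14.5- and 15.7-fold in C26 and 16.5- and 38.0-fold in CTRL replicates 1 and 2. The proteasome-bound deubiquitinase genes Usp14 (11.2-fold in C26 replicate 1, 35.6- and 41.3-fold in CTRL) and Uchl5 (11.8-fold in C26 replicate 1, 24.8- and 28.4-fold in CTRL) had no peak in C26 replicate 2. Ecpas and Uba1 had no gene-end peak, and Ecpas had one at its RefSeq start in 3 libraries.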

How the data were processed

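Phospho-CREB1 ChIP-seq of 2 C26 and 2 CTRL muscle libraries was analysed from 4 peak lists, 1 per library. The authors used MACS2 2.1.4, Bowtie2 2.3.5.1, SAMtools 1.6, FastQC 0.11.2 and Picard, and build mm10 (GRCm38), per the submitters' processing notes. Per the labels, peaks were called at q 0.05, each library with a separate input from its group, and passed a further filter whose abbreviated name the labels leave unexplained. The deposited fold enrichment is the ratio over input at the summit, and the deposited −log10 q is the peak's own value; both are scaled within 1 list. Read counts and depth are not given, and the 4 input libraries were not analysed here.

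A summit within 1000 bp of either end of a RefSeq GRCm38.p6 protein-coding gene span (21 chromosomes) was a gene-end peak; the strongest by −log10 q was kept per gene. Strand and promoter sequence came from RefSeq promoter windows of 300 bases, matched by gene ID. Proteasome genes were all accounted for. Those described in full, with position, width and −log10 q, were the 10 with the highest lowest percentile over the libraries and those with a peak in CTRL libraries only or in none; 8 of the 10 had a promoter window. Group shares were compared by exact permutation over libraries, and other counts stand beside those over all genes. The replicate numbers are shared by the groups, and nothing in the labels ties equal numbers to a shared batch or day. The genes and lists were chosen with earlier results of these data known. Alternatives were window, threshold, overlap, equal list lengths, gene start, strength measure, replicate block and leaving out each library; the ratio to all genes, the promoter-start distances and the CpG comparison were added after seeing the data. Peak assignment was tested on simulated data. Python 3.11.15, NumPy 2.4.6, pandas 2.3.3 and SciPy 1.17.1 were used.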

Additional observations from a re-analysis of the deposited data

How the results depend on the processing

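The share of proteasome genes with a gene-end peak was lower in C26 than in CTRL libraries in every alternative run, by -10.42 points with equal list lengths and -29.17 to -34.38 points under the other settings of window, threshold, overlap and gene start. Leaving out 1 library gave -50 to -14.58 points. With a replicate block the difference was -32.29 points with an exact p of 0.5, the smallest that 2 pairs allow. The ratio to all genes turned to -0.3219 with equal lists and ran from -0.05873 (without C26 replicate 1) to 0.33 (without C26 replicate 2) when 1 library was left out, where it is 0.1356 with all libraries and full lists. The median percentile difference ran from -17.03 to -8.15 and kept its direction.

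Genes at which CTRL libraries shared a peak numbered 19 with equal lists (35 with full lists). They numbered 29 to 36 under the other settings of window, threshold, overlap and gene start. With 1 CTRL library left out only the other could be counted, at 36 genes in CTRL replicate 1 and 40 in CTRL replicate 2. Genes with a peak in CTRL libraries only numbered 6 to 22 when 1 library was left out, 22 without C26 replicate 1. Genes with a peak in both C26 libraries stayed at 12 when a CTRL library was left out. With 1 C26 library left out only the other could be counted, at 31 genes in C26 replicate 1 and 14 in C26 replicate 2. Genes with a peak in all remaining libraries numbered 12 to 28 when 1 library was left out, 28 without C26 replicate 2. Under the other settings the count for both C26 libraries ran from 10 to 14 and that for all 4 libraries from 8 to 14. C26-only genes numbered 1 with equal lists and 0 to 1 when 1 library was left out. Proteasome promoters with a CRE were 20.93% with 1 mismatch allowed and 46.51% for its core, against 0% for the full CRE. With a 500 bp window Psma3, Psmb8 and Psmd2 had no peak in any library, and with 2000 bp Psmb10 had one in 2. With 2 libraries per group no test could pass 0.05, and the unknown depth limits every statement about a missing peak.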
